A study of Mus musculus with 8 samples.

Results

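Early response genes of 3 families were followed in mouse hepatocytes: the zinc finger genes Egr1, Egr2 and Egr3, the immediate early response genes Ier2, Ier3 and Ier5, and the orphan nuclear receptor genes Nr4a1, Nr4a2 and Nr4a3. They were picked out by gene symbol, as families, with earlier results of these data known, and all 9 were found among the 17276 genes listed for every library. The hepatocytes came from wild-type (WT) male C57BL/6N mice aged 6 to 8 weeks, and 4 libraries were made from cells exposed to shear stress and 4 from cells kept static. Shear stress is the drag of moving fluid on the cell surface. The strength and duration of the flow, and whether libraries of a group came from separate mice or cultures, are not stated in the sources used here, so the p-values measure only the spread between these libraries, which may be technical.

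The EGR proteins are zinc finger transcription factors that bind GC-rich DNA. The NR4A proteins are nuclear receptors that bind DNA without needing a known ligand. The IER genes encode small regulators of growth, survival and stress responses that do not resemble one another throughout, of which IER3 acts in ERK signalling and IER5 takes part in activation of the heat shock factor HSF1. Genes of all 3 families are transcribed within minutes of a stimulus from factors already present in the cell, such as serum response factor (SRF) with its ETS-type partners and the cAMP-responsive factor CREB, and their messages are short-lived. In hepatocytes EGR1 is induced by growth factors and injury, and NR4A receptors by glucagon and cAMP.

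Shear stress libraries held less mRNA of 4 of these genes and not detectably more of any. Egr1, Egr2, Ier2 and Ier3 fell, by between 1.67-fold and 3.36-fold. Ier5, Nr4a1 and Nr4a2 did not pass the test, and Egr3 and Nr4a3 had too few counts to be tested. Of the 7 genes tested, 4 (57.1%) were lower with an adjusted p under 0.05 by the edgeR quasi-likelihood test, against 23.7% of all 11747 tested genes. None of the 7 was higher, either adjusted or at an unadjusted p under 0.05, and DESeq2 gave 4 lower and 0 higher. Of all tested genes, 24.9% were higher, so that 48.6% changed in one direction or the other. The 4 shear stress libraries lay below the 4 static libraries without overlap for 4 of the 7 genes, as they did for 21.5% of all tested genes; 45.3% of all tested genes had groups without overlap in either direction (23.8% with shear stress above static). The median log2 fold change (shear stress over static) was -0.74 for the 7 genes and -0.01 for all tested genes.

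Library totals ran from 16225843 to 16732203 estimated counts with shear stress and from 15067056 to 17935566 in static culture. Counts scaled to a common library total (CPM) are given after TMM scaling, which compares libraries for 1 gene, and TPM, the authors' abundance per transcript length, is used where levels of different genes are set side by side. Other scalings moved the median log2 fold change of all genes by more than 0.1, to 0.13 with upper quartile factors and 0.22 with library totals, so changes are relative to the scaling. Markers of hepatocytes summed to 44527 to 59679 CPM with shear stress and 65509 to 84510 CPM in static culture, and 5 of 8 were lower and none higher by the edgeR test (7 lower and none higher with the replicate number as a block). The 6 measured Kupffer cell markers summed to 16.7 to 56.7 CPM with shear stress and 22.4 to 55.9 CPM in static culture, in which each marker other than Cd68 averaged under 0.2 CPM in both groups, and the 7 stellate cell markers to 3.47 to 7.98 CPM with shear stress and 2.4 to 9.13 CPM in static culture. The 8 endothelial markers summed to 14.6 to 46.9 CPM with shear stress and 14.6 to 29.3 CPM in static culture, with Stab1 higher and Pecam1 lower. The 4 measured cholangiocyte markers summed to 215 to 1704 CPM with shear stress and 131 to 1318 CPM in static culture, mostly Spp1, with Krt19 at 0.156 CPM with shear stress and 0.015 CPM in static culture on average; none was called, and 2 were higher with the block. The 4 measured leukocyte markers summed to 0.115 to 0.626 CPM with shear stress and 8.7 to 11.7 CPM in static culture, through Cd79b and Cd79a, which fell, while Ms4a1 stayed under 3 counts in every library. The part of these cell type markers in the results below was not tested, and in bulk RNA fewer cells of a type and less RNA per cell cannot be told apart.

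The 9 genes covered a wide span of abundance. In shear stress libraries the order by mean TPM was Ier3 (271 ± 36.3), Egr1 (124 ± 24.8), Ier2 (97.2 ± 16.7), Ier5 (37.4 ± 5.84), Nr4a1 (3.04 ± 0.616), Nr4a2 (0.603 ± 0.283), Egr2 (0.305 ± 0.163), Nr4a3 (0.04 ± 0.0424) and Egr3 (0.005 ± 0.01; SD, n = 4). In static libraries it was Ier3 (395 ± 132), Egr1 (199 ± 48.3), Ier2 (177 ± 17.2), Ier5 (48.2 ± 21.7), Nr4a1 (2.6 ± 0.607), Egr2 (0.938 ± 0.272), Nr4a2 (0.353 ± 0.114), Nr4a3 (0.117 ± 0.0236) and Egr3 (0.005 ± 0.01; SD, n = 4). Neighbours whose ranges overlapped were Egr1 and Ier2 in both groups, and Nr4a2 and Egr2, and Nr4a3 and Egr3, with shear stress. Egr2 and Nr4a2 stood in opposite order in the groups: Nr4a2 was above Egr2 in 4 of 4 shear stress libraries, and Egr2 above Nr4a2 in 4 of 4 static libraries.

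**Figure D1:**
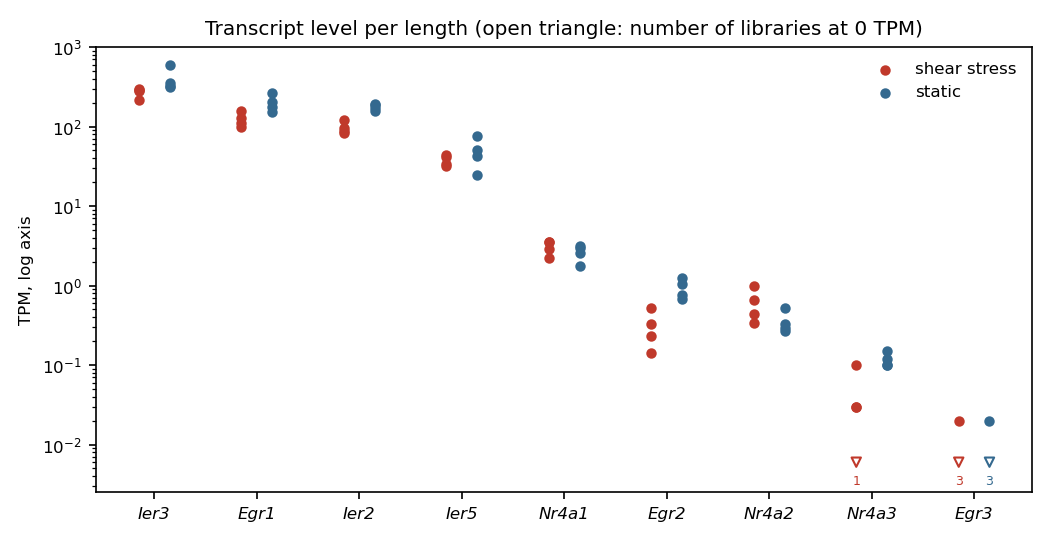
Deposited TPM of the 9 genes on a log axis, 1 point per library, with shear stress left of static within each gene and genes ordered by their static mean; open triangles give the number of libraries at 0 TPM, and equal values lie on top of each other. Ier3, Egr1, Ier2 and Ier5 lay above 20 TPM in every library and the other 5 genes below 4 TPM.

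The abundant genes were also the most compact. Ier2 and Ier5 have a single exon and no intron in the GENCODE M21 gene models of build GRCm38, and Ier3, Egr1, Egr2 and Egr3 have 1 intron. The NR4A genes have 7 introns. In RefSeq they span 20894 bases for Nr4a1, 17174 bases for Nr4a2 and 41370 bases for Nr4a3, against 1199 bases for Ier3 and 1522 bases for Ier2. No gene annotated in GENCODE M21 overlapped any of the 9. Nacc1, at 96.2 CPM and a log2 fold change of 0.38, ends 7.63 kb upstream of Ier2 on the same strand, and no other protein-coding gene on the same strand ended within 10 kb upstream of the 9.

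Promoters of 4 of the genes show which recognition sequences they carry for the factors that drive early genes. The windows are RefSeq's, build GRCm38.p6, from 250 bases before to 50 after a transcription start, 5′ to 3′ along the gene. Egr2, which fell, is set beside the NR4A genes, of which Nr4a1 and Nr4a2 were not called and Nr4a3 was not tested. Fitted despite its low counts, Nr4a3 had a log2 fold change of -1.89 ± 0.70 (SE). Capitals mark matches, on either strand, to a CArG box (the SRF site, named alone), the short CRE core TGACG bound by CREB-type factors, the ETS core CCGGAA and the EGR site GCGGGGGCG; the full CRE TGACGTCA, which contains the core, and the NR4A site AAAGGTCA were searched too and matched none of the 4. The windows lie at chr10:67537619-67537918 (Egr2, plus strand), chr15:101266596-101266895 (Nr4a1, plus), chr2:57123954-57124253 (Nr4a2, minus) and chr4:48045055-48045354 (Nr4a3, plus).
Egr2: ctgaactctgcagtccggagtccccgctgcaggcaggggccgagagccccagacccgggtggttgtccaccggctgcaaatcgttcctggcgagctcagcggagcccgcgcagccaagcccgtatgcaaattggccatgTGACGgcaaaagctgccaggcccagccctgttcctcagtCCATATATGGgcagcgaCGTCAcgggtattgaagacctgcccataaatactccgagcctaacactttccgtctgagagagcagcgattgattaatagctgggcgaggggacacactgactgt
Nr4a1: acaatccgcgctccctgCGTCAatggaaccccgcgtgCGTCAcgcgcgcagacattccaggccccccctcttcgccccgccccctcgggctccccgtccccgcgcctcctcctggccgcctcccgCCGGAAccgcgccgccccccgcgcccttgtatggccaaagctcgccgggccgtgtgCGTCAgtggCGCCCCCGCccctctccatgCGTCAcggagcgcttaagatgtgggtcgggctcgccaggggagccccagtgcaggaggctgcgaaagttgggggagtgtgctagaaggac
Nr4a2: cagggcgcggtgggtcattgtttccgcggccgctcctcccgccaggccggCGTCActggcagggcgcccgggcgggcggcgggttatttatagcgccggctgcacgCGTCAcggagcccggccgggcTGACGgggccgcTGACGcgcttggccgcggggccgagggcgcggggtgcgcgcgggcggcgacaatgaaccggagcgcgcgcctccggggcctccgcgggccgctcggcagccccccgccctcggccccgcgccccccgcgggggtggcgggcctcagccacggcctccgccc
Nr4a3: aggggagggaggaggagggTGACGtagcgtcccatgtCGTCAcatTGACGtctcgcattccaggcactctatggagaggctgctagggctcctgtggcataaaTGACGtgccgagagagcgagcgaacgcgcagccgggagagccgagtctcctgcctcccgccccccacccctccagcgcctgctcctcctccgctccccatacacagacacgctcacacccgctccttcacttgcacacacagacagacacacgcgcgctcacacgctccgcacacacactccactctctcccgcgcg

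The Egr2 window held 1 CArG box, 72 bases before the start, and 2 CRE cores. A CArG box was present in 1.63% of all 32851 promoter windows of this length. RefSeq gives 5 windows for Egr2, of which the one shown has its transcription start at the start of the GENCODE transcript. Of the 5, 4 held a CArG box, but those beginning at bases 67537619, 67537620 and 67537680 overlap and share the same box. Another Egr2 window, with its start 303 bases away, held 3 ETS cores, and the one shown held none. Each of the 3 NR4A windows held 4 CRE cores, whereas 20.8% of all windows held at least 1 and 0.231% held 4 or more. Among the 12108 windows of tested genes these shares were 30.5% and 0.529%, and that of the CArG box 1.25%. Nr4a1 also held 1 ETS core (14.9% of all windows and 27.6% of those of tested genes) and 1 EGR site (2.91% and 5.3%). The windows of Ier3 and Ier5 matched none of these motifs, which says only that the letters are not in those 300 bases. For Nr4a1 and Nr4a2 the RefSeq start lies 12577 and 8965 bases from the start of the GENCODE transcript used for the exon counts. A match describes the sequence and does not show binding.

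Egr1, the founding member of the EGR family and its only abundant one here, fell in every replicate number. It had 207, 281, 211 and 258 CPM in shear stress replicates 1 to 4, against 484, 551, 357 and 413 CPM in static replicates 1 to 4. The highest shear stress library was below the lowest static library, although in TPM shear stress replicate 2 (157) passed static replicate 3 (152). The log2 fold change was -0.92 ± 0.16 (SE, adjusted p = 0.00128), a 1.89-fold fall. Libraries with the same number gave 42.7%, 51.1%, 59% and 62.5% of the static level in numbers 1 to 4. Egr1 made up at least 99.3% of the summed EGR TPM in each library.

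Egr2, best known for its role in hindbrain and Schwann cell development, was scarce and fell. It had 8, 11, 17 and 5 estimated counts in shear stress replicates 1 to 4, against 25, 43, 29 and 26 in static replicates 1 to 4. These are 0.463, 0.574, 0.981 and 0.283 CPM with shear stress and 1.54, 2.5, 2.2 and 1.56 CPM in static culture, with no overlap. Its log2 fold change was -1.75 ± 0.38 (adjusted p = 0.00439), and the interval of 2 standard errors ran from -2.5 to -0.99. With limma on TPM, where 0.5 was added to each value, it was -0.84 (adjusted p = 0.00676). Egr3, which acts in muscle spindles and immune cells, had a total of 1 count in the shear stress libraries and 1 in the static libraries. By library totals without TMM factors, 3 counts are between 0.167 and 0.199 CPM, so no difference of Egr3 was detectable.

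**Figure D2:**
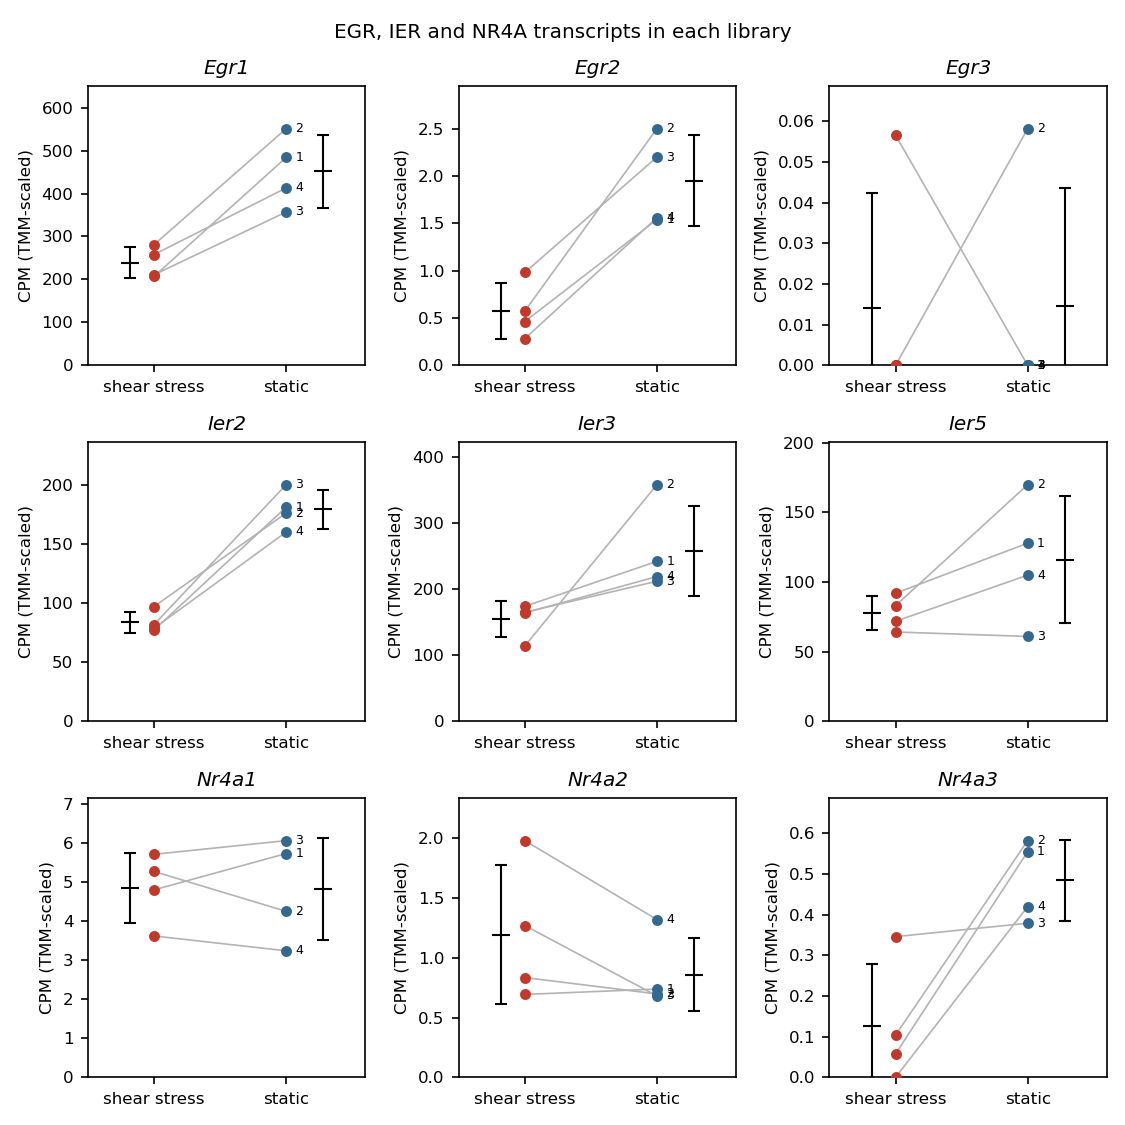
TMM-scaled CPM of each gene, 1 point per library, with shear stress left and static right; grey lines join libraries with the same replicate number, printed at the right, and black marks give the mean ± SD (n = 4), cut off at 0. For Egr1, Egr2, Ier2 and Ier3 every shear stress point lies below every static point, and the scales differ between panels.

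Ier2, an intronless gene encoding a nuclear regulator of transcription, fell in every replicate number. It had 77.2, 97, 81.8 and 78.7 CPM in shear stress replicates 1 to 4, against 181, 176, 200 and 160 CPM in static replicates 1 to 4. The groups were well separated, and the same-number libraries gave between 40.8% and 55.2% of the static level. The log2 fold change was -1.1 ± 0.11 (adjusted p = 9.64e-05), a 2.14-fold fall.

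Ier3, also called IEX-1, was the most abundant of the 9 and fell unevenly. It had 174, 114, 165 and 164 CPM in shear stress replicates 1 to 4, against 242, 358, 212 and 219 CPM in static replicates 1 to 4. No shear stress library reached the lowest static library, but replicate number 2 stood apart in both groups, lowest with shear stress and highest in static culture. The log2 fold change was -0.74 ± 0.19 (adjusted p = 0.0111). Within number 2 the shear stress level was 31.9% of the static level, and within numbers 1, 3 and 4 it was 71.9%, 77.9% and 75.2%. Without both libraries of number 2 the log2 fold change was -0.40 (adjusted p = 0.0141), and the call was lost with limma on TPM (-0.50, adjusted p = 0.0617).

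Ier5 was not called in the fit without pairing and was called with it. It had 92, 83.1, 64.2 and 71.9 CPM in shear stress replicates 1 to 4, against 128, 170, 61 and 105 CPM in static replicates 1 to 4. The groups overlapped, because static replicate 3 was the lowest of all 8 libraries, and the same-number ratio was 105% in number 3 and between 48.8% and 71.8% in the other 3. The log2 fold change was -0.58 ± 0.27 (adjusted p = 0.105). With the replicate number as a block it was -0.50 ± 0.15 (adjusted p = 0.0214), so that 5 of the 7 tested genes were lower and 0 higher in that fit, in which 31.0% of all tested genes were lower, 30.1% higher and 61.1% either. Ier5 was also called without static replicate 3 (-0.79, adjusted p = 0.00894) and without both libraries of number 3 (-0.71, adjusted p = 0.0205).

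Nr4a1, the most abundant NR4A gene (Nur77), was at almost the same mean level in both groups. It had 4.8, 5.27, 5.71 and 3.62 CPM in shear stress replicates 1 to 4, against 5.73, 4.25, 6.06 and 3.24 CPM in static replicates 1 to 4. The ranges overlapped, with 2 numbers lower and 2 higher under shear stress. The log2 fold change was 0.01 ± 0.24 (adjusted p = 0.968), and 2 standard errors on either side ran from -0.47 to 0.5. The fall of 0.92 seen for Egr1 lies outside this interval.

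Nr4a2 (Nurr1), needed for midbrain dopamine neurons, had 0.694, 0.835, 1.27 and 1.98 CPM in shear stress replicates 1 to 4, against 0.739, 0.698, 0.682 and 1.32 CPM in static replicates 1 to 4. Number 4 was the highest library of its group in both, and the groups overlapped. The log2 fold change was 0.46 ± 0.40 (adjusted p = 0.367), with an interval of 2 standard errors from -0.34 to 1.27. Nr4a3 (NOR1) had 1, 2, 6 and 0 counts in shear stress replicates 1 to 4, against 9, 10, 5 and 7 in static replicates 1 to 4. It did not pass the filter on low counts. In CPM the groups did not overlap, and in TPM they met at 0.1. Fitted without that filter, it gave a log2 fold change of -1.89 ± 0.70 (adjusted p = 0.0522), from a sum of 9 counts with shear stress and 31 in static culture.

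**Figure D3:**
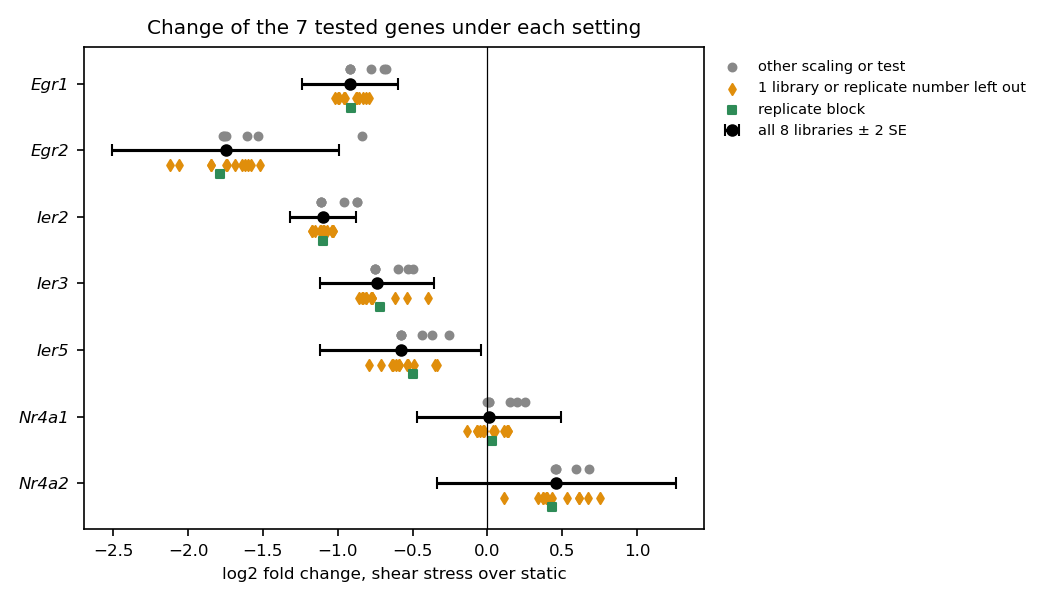
Log2 fold change (shear stress over static) of the 7 tested genes with all 8 libraries (black, ± 2 standard errors), with other scalings, filters or tests (grey), with 1 library or 1 replicate number left out (orange), and with the replicate block (green). The points of Egr1, Egr2, Ier2, Ier3 and Ier5 lie left of 0 in every setting shown, and those of Nr4a2 right of 0. Ier5 was called in only some settings. Nr4a1 falls on both sides of 0, and the bars of Nr4a1 and Nr4a2 cross 0.

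Whether genes of 1 family changed by unequal amounts was asked from the log2 ratio of their TPM within each library (0.1 added to each value), over 9 pairs. None of the 9 passed a two-sided exact permutation test after Benjamini-Hochberg adjustment (smallest adjusted p = 0.0857), and the smallest unadjusted p that 4 against 4 libraries allow is 0.0286. Pairs at that smallest p still had an adjusted p of 0.0857. The adjusted test could therefore hardly pass, and its outcome does not show equal change. The log2 ratio of Nr4a1 to Nr4a3 averaged 4.51 ± 0.25 with shear stress and 3.61 ± 0.36 in static culture (SD, n = 4, exact permutation p = 0.0286, adjusted p = 0.0857). That of Nr4a2 to Nr4a3 averaged 2.29 ± 0.77 with shear stress and 1.03 ± 0.40 in static culture (exact permutation p = 0.0286, adjusted p = 0.0857). In both pairs, and in Egr2 to Egr3, the shear stress and static libraries did not overlap. The log2 ratio of Egr1 to Egr2 averaged 8.32 ± 0.66 with shear stress and 7.59 ± 0.42 in static culture (exact permutation p = 0.143, adjusted p = 0.214), and the difference turned from 0.73 to -0.11 when 1 TPM was added in place of 0.1. Ratios with Egr3 or Nr4a3 mainly show the partner over the added 0.1: Egr3 was at 0 TPM in most libraries, and Nr4a3 was at 0.03, 0.03, 0.1 and 0 TPM in shear stress replicates 1 to 4. With 1 TPM added, the differences with Nr4a3 were 0.27 for Nr4a1 and 0.34 for Nr4a2.

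The genes whose log2 CPM ran most like 1 of the 9 over the 8 libraries were sought among 9333 genes of at least 5 CPM; libraries of a group share its treatment, so these values describe likeness. For Egr1 they were Farp2 (Pearson's r = 0.981), B2m (0.980), which encodes the light chain of class I histocompatibility molecules, and Plaa (0.977). For Ier2 they were Bcl7b (0.996), Jun (0.995), the AP-1 subunit and itself an immediate early gene, and Brd2 (0.993), a bromodomain reader of acetylated histones. For Nr4a1 they were Klf16 (0.902), Ss18l1 (0.896) and 4833420G17Rik (0.883).

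Close relatives and partner proteins were lower or not called. Of 10 listed genes 9 were in the files and 7 tested, of which 4 fell and none rose (none at an unadjusted p under 0.05 or by DESeq2 either), with a median log2 fold change of -0.54. The 57.1% that fell compares with 23.7% of all tested genes. Nab1, a corepressor that binds EGR proteins, averaged 135 ± 11.5 CPM with shear stress and 214 ± 57.1 CPM in static culture (-0.67 ± 0.18, adjusted p = 0.0141), a call lost without both libraries of number 2 or 4 (adjusted p = 0.0787 and 0.0643), with library totals and with limma on TPM. Its relative Nab2 was at 5.39 ± 1.36 CPM with shear stress and 4.08 ± 0.667 CPM in static culture (adjusted p = 0.171). Among the retinoid X receptors, with which Nr4a1 and Nr4a2 can pair, Rxra averaged 98.6 ± 8.98 CPM with shear stress and 143 ± 13.4 CPM in static culture (adjusted p = 0.00224). Rxrb averaged 34.4 ± 2.06 CPM with shear stress and 69.8 ± 5.86 CPM in static culture (adjusted p = 8.19e-05). Ppp2r2d, a B55-type regulatory subunit of protein phosphatase 2A, the kind through which IER5 acts on HSF1, averaged 49.7 ± 5.73 CPM with shear stress and 89.4 ± 15.8 CPM in static culture (adjusted p = 0.00106). Ppp2r2a, of the same B55 type, was not called, at 70 ± 1.66 CPM with shear stress and 69.3 ± 5.94 CPM in static culture (adjusted p = 0.918; named after its values were seen). The call of Rxra was lost with limma on TPM. Egr4 was at 0 counts in the shear stress libraries and averaged 0.0489 CPM in static culture.

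Among 12 regulators that act on early gene promoters, 6 fell, 2 rose and 4 were not called, with a median log2 fold change of -0.23. In all, 66.7% were called, against 48.6% of all tested genes. Srf itself was at 70 ± 16 CPM with shear stress and 73.7 ± 13.2 CPM in static culture (adjusted p = 0.749). Of its 3 ETS-type partners, 1 fell, 1 rose and Elk1 was not called, at 7.39 ± 1.19 CPM with shear stress and 8.08 ± 1.04 CPM in static culture (adjusted p = 0.552; named after its values were seen). Elk4 averaged 17.2 ± 2.72 CPM with shear stress and 51.2 ± 9.98 CPM in static culture (-1.57 ± 0.17, adjusted p = 0.000129). Elk3 averaged 9.25 ± 3.26 CPM with shear stress and 1.21 ± 0.654 CPM in static culture (2.91 ± 0.40, adjusted p = 0.000435). The CREB coactivator gene Crtc2, the form that acts in glucagon responses of liver, averaged 43.3 ± 4.07 CPM with shear stress and 90.8 ± 14.3 CPM in static culture (-1.07 ± 0.13, adjusted p = 0.000239), and Crtc1 averaged 21.1 ± 2.36 CPM with shear stress and 12.5 ± 1.45 CPM in static culture (0.75 ± 0.13, adjusted p = 0.00142). The 6 falls were 3 without both libraries of number 2, 3 with upper quartile factors or library totals, and 2 with limma on TPM.

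Of 14 genes of the ERK cascade, which phosphorylates the ETS-type partners of SRF, 4 rose, 3 fell and 7 were not called (median log2 fold change -0.04); the 50% called is close to the 48.6% of all tested genes. Nras averaged 118 ± 9.35 CPM with shear stress and 68.1 ± 9.53 CPM in static culture (adjusted p = 0.000655). Among those that fell were the kinase genes Map2k2 (142 ± 5.85 CPM with shear stress and 210 ± 22.3 CPM in static culture, adjusted p = 0.00128) and Rps6ka1 (19.3 ± 4.68 CPM with shear stress and 41.4 ± 9.92 CPM in static culture, adjusted p = 0.00236), and with the replicate block 5 genes fell and 3 rose. DESeq2 gave 3 rises too. Of 10 tested genes that ERK signalling is known to induce, 4 fell and 1 rose, or 4 and 2 with the block (median -0.18); here too 50% were called, against 48.6% of all tested genes. Dusp6, a phosphatase that switches off ERK, averaged 54.9 ± 16.2 CPM with shear stress and 278 ± 120 CPM in static culture (-2.34 ± 0.31, adjusted p = 0.000498). Spred1 and Phlda1 fell by 0.56 ± 0.13 and 0.48 ± 0.09 on the log2 scale, and Etv5 rose by 1.17 ± 0.20. Phlda1 lost its call with library totals and limma on TPM, and Spred1 with limma on TPM. The 1 rise was 2 without static replicate 2 or both libraries of number 2.

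Other immediate early genes formed the largest group beside the 9. Of 24, 13 fell (16 with the replicate block), 3 rose and 8 were not called (median log2 fold change -0.82). Here 66.7% were called. Of all tested genes 48.6% were called and 23.7% were lower (31.0% lower with the block). Csrnp1 averaged 35.4 ± 5.76 CPM with shear stress and 150 ± 29.8 CPM in static culture (-2.08 ± 0.17, adjusted p = 5.5e-05). Jun fell by 1.99 ± 0.19, Junb by 1.36 ± 0.13 and Maff, a small MAF factor, by 1.66 ± 0.17 on the log2 scale, each with no overlap between groups. Of all tested genes, 21.5% lay lower with shear stress without overlap. The 3 that rose were Ccn1, Sik1 and Rhob, named after their values were seen, and 1 rose without both libraries of number 3.

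**Figure D4:**
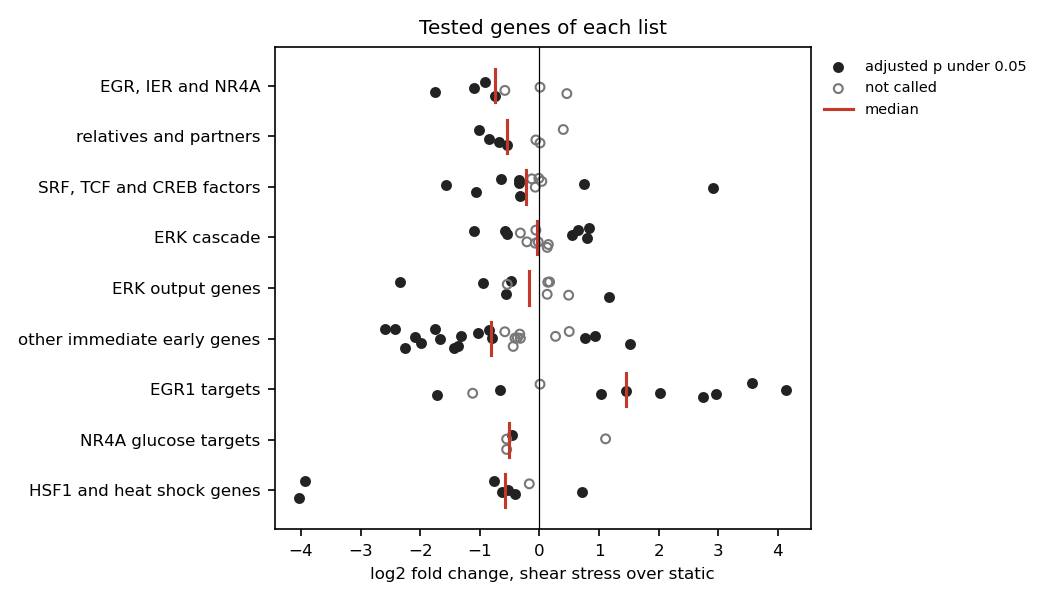
Log2 fold change (shear stress over static) of each tested gene, 1 point per gene, by list, with filled points for an adjusted p under 0.05 and red bars at the list medians; the vertical scatter within a row carries no meaning. The medians run from -0.82 for other immediate early genes to 1.46 for EGR1 targets, against -0.01 for all tested genes.

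Genes described elsewhere as EGR1 targets mostly went the other way from Egr1. Of 11, 7 rose, 2 fell and 2 were not called (median log2 fold change 1.46). The 81.8% called compares with 48.6% of all tested genes, and 24.9% of all tested genes rose. With the replicate block 7 rose and 3 fell, in a fit where 30.1% of all tested genes were higher and 31.0% lower. DESeq2 gave 7 rises and 3 falls too. F3, the gene of tissue factor, averaged 143 ± 77.6 CPM with shear stress and 8.07 ± 3.97 CPM in static culture (4.14 ± 0.51, adjusted p = 0.000368), and the growth factor gene Pdgfa 94.6 ± 18.1 CPM with shear stress and 23.3 ± 6.78 CPM in static culture (2.02 ± 0.22, adjusted p = 0.000164). Among those that fell was the adhesion molecule gene Icam1 (31.2 ± 9.84 CPM with shear stress and 102 ± 18 CPM in static culture, adjusted p = 0.000484).

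Of 5 glucose metabolism genes that NR4A receptors can induce in mouse liver, or that respond to cAMP there, 4 were tested, of which 1 fell and none rose (none at an unadjusted p under 0.05 or by DESeq2). That was Eno3, at 19.4 ± 3.08 CPM with shear stress and 26.7 ± 2.8 CPM in static culture (-0.46 ± 0.14, adjusted p = 0.0214). The share called was 25%, against 48.6% of all tested genes (23.7% lower and 24.9% higher). With the replicate block 2 fell and 1 rose: G6pc, glucose-6-phosphatase, at 96.4 ± 38.3 CPM with shear stress and 44.7 ± 30.7 CPM in static culture, rose (blocked adjusted p = 0.000256), and Fbp1, at 195 ± 151 CPM with shear stress and 287 ± 233 CPM in static culture, fell (blocked adjusted p = 0.000125). In that fit 31.0% of all tested genes were lower and 30.1% higher. The fall of Eno3 was lost without shear stress replicate 1 or 2, or without both libraries of number 1, 2 or 4 (adjusted p between 0.0546 and 0.137), and with upper quartile factors, library totals or limma on TPM. G6pc and Fbp1 were named after their values were seen.

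Of HSF1, which IER5 helps to activate, and 7 of the heat shock genes it drives, 6 fell, 1 rose and 1 was not called (median log2 fold change -0.57). The share called was 87.5%, against 48.6% of all tested genes. Hspa1b averaged 5.58 ± 1.38 CPM with shear stress and 91.5 ± 51.9 CPM in static culture, and its near-identical copy Hspa1a 0.547 ± 0.242 CPM with shear stress and 8.7 ± 5.06 CPM in static culture, so that the division of reads between them is uncertain. Bag3, an HSP70 cochaperone gene, averaged 101 ± 10.6 CPM with shear stress and 156 ± 15.8 CPM in static culture (adjusted p = 0.00142), and Hsf1 30.8 ± 0.405 CPM with shear stress and 44.2 ± 5.57 CPM in static culture (adjusted p = 0.00367), with the Hsf1 call lost with library totals and limma on TPM. The 1 rise, of Hspb1 (261 ± 51.9 CPM with shear stress and 160 ± 48.2 CPM in static culture, adjusted p = 0.0235; named after its values were seen), was lost without static replicate 1, shear stress replicate 4, or both libraries of number 1, 2 or 3.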

How the data were processed

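HISAT, Bowtie2 and RSEM are the tools listed, with build GRCm38 (mm10), per the submitters' processing notes; their versions, the annotation and the strand setting are not given there. Per the file headers, each of the 8 deposited files lists a read count, TPM and FPKM for 17276 genes. The read counts are expected counts estimated by the authors before they were deposited (9.31% to 10.7% per library not whole, tolerance 1e-09), and were rounded. The deposited TPM values, computed by the authors, served for levels and ratios. FPKM was not used.

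Genes were kept with filterByExpr and scaled with TMM factors (11747 genes). Shear stress was compared with static in edgeR 4.0.16 (quasi-likelihood; R 4.3.3), with Benjamini-Hochberg adjustment over all tested genes and a threshold of 0.05. DESeq2 1.42.0 and limma 3.58.1 were alternatives. The smallest chi-square per degree of freedom between libraries of a group was 45.2, so they differed by more than counting error. Each was treated as a sample, although whether they came from separate mice or cultures is not stated. Intervals of 2 standard errors come from the edgeR fit and include the spread between libraries; the floor of 3 counts covers counting error only.

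Libraries with the same replicate number correlated at r = 0.679, 0.642, 0.56 and 0.467 over 8446 genes after removal of group means, and at most -0.0178 otherwise, so the numbers pair the libraries; what a number stands for is not stated. The numbers are those of the sample titles (1 to 4); the file headers number the same libraries 1, 3, 4 and 5 in both groups, which pairs them alike. The spread between replicates (edgeR's biological coefficient of variation) came to 0.214 unpaired and 0.125 blocked.

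The 9 genes and the 8 lists were chosen with earlier results of these data known. Named were all 9 genes, at most 4 called genes per list, taken in order of p (the most abundant if none passed), and the 3 genes most like Egr1, Ier2 and Nr4a1; others are marked where named. Some genes that this rule would name are not reported here. Exon and intron counts came from GENCODE M21. Gene spans and promoter windows, matched by gene ID, came from RefSeq. Windows were searched for 6 of the 9 genes, and Egr1 was left out of that search by choice.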

Additional observations from a re-analysis of the deposited data

Results flagged for a closer look

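Of 18 groups of 4 libraries (9 genes, shear stress and static), those of Egr3, at most 0.0582 CPM, were too low to be examined. In the remaining groups 2 libraries lay further from the other 3 than the 95% limit of Dixon's test, where chance flags about 1 in 20 groups. Ier3 was at 114 CPM in shear stress replicate 2, with a gap of 0.838 of the range to the next library. Nr4a2 was at 1.32 CPM in static replicate 4, with a gap of 0.91 of the range.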

How the results depend on the processing

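The count of 4 lower and 0 higher genes was 4 and 0 with RLE, upper quartile or library total scaling, DESeq2 and no filter, 5 and 0 with the replicate block and 3 and 0 with limma on TPM, and ranged from 4 to 5 and 0 to 0 with libraries left out. Leaving out both libraries of a replicate number was added after seeing the data. Without 1 library or number the log2 fold changes ranged from -1.02 to -0.79 for Egr1, -2.12 to -1.52 for Egr2, -1.17 to -1.03 for Ier2, -0.86 to -0.40 for Ier3, -0.79 to -0.34 for Ier5, -0.14 to 0.14 for Nr4a1 and 0.11 to 0.75 for Nr4a2. The difference in the log2 ratio of Egr1 to Egr2 turned to -0.11 with 1 TPM added. With 3 libraries in a group, or 4 paired differences, the exact tests cannot pass (smallest p 0.0571 and 0.125).

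Counts that moved by over 1.5 times were as follows, and the cause was not tested. With limma on TPM, relatives and partners had 2 falls, promoter regulators 2 falls, ERK-induced genes 2 falls and 3 rises, and glucose genes 0 falls and 1 rise. With library totals, relatives had 1 rise, promoter regulators 3 falls, ERK-induced genes 3 rises and glucose genes 0 falls and 1 rise. With upper quartile factors, promoter regulators had 3 falls, ERK-induced genes 3 rises and glucose genes 0 falls. With the replicate block, the ERK cascade had 5 falls, ERK-induced genes 2 rises and glucose genes 2 falls and 1 rise; it changed no call among the 9 genes other than Ier5. With libraries left out, falls of promoter regulators ranged from 3 to 6, rises of ERK-induced genes from 1 to 2, rises of other immediate early genes from 1 to 3, falls and rises of glucose genes each from 0 to 1, and rises of heat shock genes from 0 to 1. Egr3 and Nr4a3 are limited by depth.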

Other observations

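The summed TPM of the 9 genes lay between 517 and 543 in the 4 shear stress libraries and between 682 and 1126 in the 4 static libraries, with SDs of 11.6 TPM with shear stress and 207 TPM in static culture (n = 4 each). The IER genes summed to 406 ± 18.7 TPM with shear stress and 620 ± 160 TPM in static culture, and the EGR genes to 124 ± 24.8 TPM with shear stress and 200 ± 48.4 TPM in static culture. Static replicate 2 held the highest CPM of Egr1, Egr2, Ier3 and Ier5 among all 8 libraries. The difference in spread was not tested.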
